A study of Mus musculus with 20 samples.

Results

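The liver-enriched transcription factors are 9 genes, Hnf4a, Foxa1, Foxa2, Foxa3, Cebpa, Cebpb, Onecut1, Onecut2 and Prox1, of 36128 genes in the deposited expression table. They were chosen by name, as DNA-binding regulators that are abundant in hepatocytes, and all 9 were found in the expression table and in the count table of each strain. PolyA-selected liver RNA was sequenced from 20 mice at 8 weeks of age, 1 library per mouse: 5 males and 5 females of C57BL/6J (B6), a classical inbred strain, and 5 males and 5 females of CAST/EiJ (CAST), an inbred strain derived from wild mice of another subspecies. The mice were untreated and carried no engineered allele, and the groups differ by sex and strain. Per the study's methods the livers were taken over several days, with at most 2 of each strain and sex on any day. The day of each liver is not given in the sources used here, so collection day was not in any test and its part in the spread within groups was not tested. Strain, sex and replicate number follow the library titles. For 10 libraries (B6 females, CAST males) a separate strain entry gives the opposite strain, and the title was used there.

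Hepatocyte identity depends on a small network of such factors, which bind many of the same enhancers and each other's genes. HNF4A is a nuclear receptor that drives much of the hepatocyte program. The FOXA proteins open compacted chromatin and bind next to nuclear receptors. The C/EBP proteins are leucine zipper factors, with Cebpa tied to metabolic genes of resting liver and Cebpb to the acute-phase response and regeneration. The ONECUT proteins, also called HNF6 and OC-2, carry a cut domain and a homeodomain and act in liver and bile duct development, and Onecut1 is known in rodents as a gene that growth hormone acts on. PROX1 is a homeodomain protein that represses many nuclear receptor targets. Growth hormone, secreted in pulses in males and more steadily in females, sets most sex differences of liver expression, and several of these factors act beside it.

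All 9 are protein-coding genes in the GENCODE annotation of mm9, the build that the authors used. Foxa3 lies at chr7:19598631-19608887 on the minus strand, Cebpb, which has a single exon, at chr2:167514415-167515918 on the plus strand, Onecut1 at chr9:74709728-74737591 on the plus strand and Prox1 at chr1:191945660-191994559 on the minus strand. These 4 genes carry most of the results given here. Exonic bases are shared with another annotated gene by 3 members, 312 bases of Cebpb with Tmem189, 479 of Onecut1 with Gm16551 and 133 of Prox1 with Gm17566. Gm16551 lies on the same strand as Onecut1, so strand could not separate their reads, while Tmem189 and Gm17566 lie opposite to Cebpb and Prox1. Per the study's methods the libraries were made with a directional kit, but the sources used here do not say whether the counting used strand. Reads in the shared bases therefore cannot be assigned to 1 of the 2 genes.

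The 250 bases before the RefSeq start of Foxa3, Cebpb and Onecut1 are shown because these genes differed most between the strains or between livers of a group. The sequences are from RefSeq on GRCm38.p6, each has a single exact match in mm9, and they are those of the reference strain, so they show nothing of CAST variants. Capitals mark matches, on either strand, to the letters TATAAA (the TATA box), TGTTTNC (FOXA), ATCAAT (Onecut), TTGCNNAA (C/EBP), TTCNNNGAA (STAT) and TGACG (CREB), and no matches in these windows overlap.
Foxa3, chr7:19608889-19609138 in mm9, minus strand: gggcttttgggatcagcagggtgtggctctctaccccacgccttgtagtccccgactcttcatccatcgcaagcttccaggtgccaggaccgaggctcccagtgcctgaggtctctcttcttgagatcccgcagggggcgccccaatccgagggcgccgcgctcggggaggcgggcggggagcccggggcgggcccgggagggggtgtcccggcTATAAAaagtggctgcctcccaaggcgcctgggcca
Cebpb, chr2:167514165-167514414 in mm9, plus strand: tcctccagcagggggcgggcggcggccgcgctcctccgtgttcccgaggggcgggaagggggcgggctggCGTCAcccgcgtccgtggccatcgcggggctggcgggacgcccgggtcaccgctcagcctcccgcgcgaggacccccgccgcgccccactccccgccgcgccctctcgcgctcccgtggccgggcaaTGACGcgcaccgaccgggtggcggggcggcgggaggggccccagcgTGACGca
Onecut1, chr9:74709478-74709727 in mm9, plus strand: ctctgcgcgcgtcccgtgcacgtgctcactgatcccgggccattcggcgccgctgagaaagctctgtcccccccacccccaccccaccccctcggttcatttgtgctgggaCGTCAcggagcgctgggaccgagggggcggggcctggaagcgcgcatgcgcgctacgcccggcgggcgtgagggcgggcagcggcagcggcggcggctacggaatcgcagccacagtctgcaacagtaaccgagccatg

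The Foxa3 window holds TATAAA at 36 to 31 bases before the start, and Cebpa, whose window is not shown, holds the same letters at 30 to 25 bases. On either strand and anywhere in the window, these letters occur in 12.4% of 32851 promoters. A Prox1 promoter (34 to 29 bases) and a Foxa2 promoter (208 to 203 bases) hold them on the opposite strand. Cebpb has 3 matches to TGACG and Onecut1 has 1, against 17.8% of all promoters with at least 1 match. The 3 windows are rich in G and C, with 68.8% in Foxa3, 81.6% in Cebpb and 71.6% in Onecut1. RefSeq promoters were found for 8 of the 9 members, 12 windows in all. Among the others, 1 Hnf4a promoter and, on the opposite strand, 1 Foxa2 promoter hold the Onecut letters ATCAAT, present in 6.72% of promoters. That Hnf4a promoter, the Foxa1 promoter and 1 of the Prox1 promoters hold the FOXA letters TGTTTNC, present in 17.8%. These are matches of letters and not measured binding.

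Between 7969482 and 35328573 reads per liver were counted on genes, and members were represented by 48 reads (Onecut1 in B6 female 5) to 23646 reads (Hnf4a in CAST female 1). Marker genes were those of liver: the summed FPKM (fragments per length of exon and depth of the library) of 6 hepatocyte markers was 16952 to 30911, while 5 of 6 bile duct markers averaged below 1 FPKM over the 20 livers. By group the hepatocyte sums were 19623 to 21170 in males and 25339 to 30911 in females of B6, and 16952 to 18638 and 20272 to 25956 in those of CAST. In bulk liver, a change in the number of cells of a type and a change in RNA per cell cannot be told apart. The FPKM of a member divided by its depth-scaled count was nearly constant over livers of both strains, with a CAST to B6 quotient of 1.00 to 1.01, so the lengths behind the FPKM differed little between the strains.

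By mean FPKM over the 20 livers, the order was Hnf4a (66.4), Cebpa (59.6), Cebpb (19.2), Prox1 (8.86), Onecut1 (8.79), Foxa3 (8.61), Onecut2 (6.33), Foxa2 (6.11) and Foxa1 (3.78). FPKM is scaled to exon length, so levels can be set side by side between genes. Hnf4a and Cebpa stood apart from the rest, since Cebpa exceeded Cebpb in 20 of 20 livers without overlap of their ranges. Every other pair of neighbours in this order overlapped. Hnf4a exceeded Cebpa in 15 of 20 livers, and Foxa2 exceeded Foxa1 in 20 of 20 livers although their ranges overlapped. Foxa3 and Onecut1 moved farthest in the order between groups. Foxa3 ranked at position 4 of 9 in B6 males with a mean of 13.2 FPKM and at position 8 in CAST females with 4.38, while Onecut1 ranked at position 8 in B6 females with 5.76 and at position 4 in both CAST groups.

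**Figure D1:**
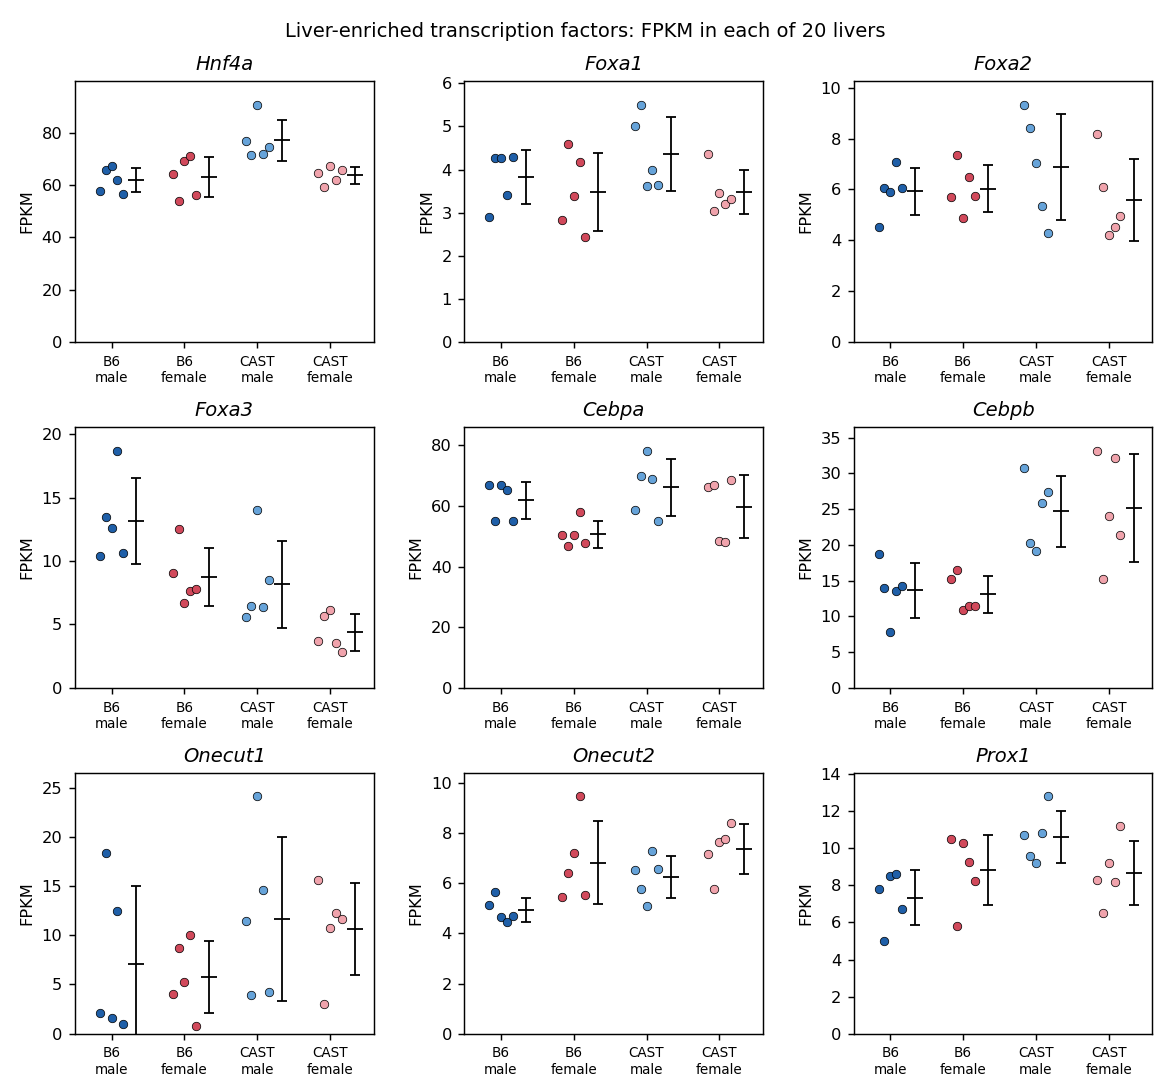
FPKM of the 9 members in each of 20 livers; each panel is a gene, each point a liver (replicates 1 to 5 from left to right), and the bar beside the points is the mean ± SD of the 5 livers, cut at 0 for Onecut1 in B6 males. Cebpb has higher means in CAST (24.7 and 25.2) than in B6 (13.6 and 13.1), Foxa3 declines from B6 males (mean 13.2) to CAST females (4.38), and Onecut1 spreads from 0.792 to 24.1 over the livers.

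Differences between males and females were tested in each strain, and differences between strains in each sex, with edgeR's quasi-likelihood test on the counts over all genes. A call needs an adjusted p under 0.05, and each p measures the spread between livers of different mice. In B6 liver 3 of the 9 members were called between the sexes, against 7.55% of 25690 genes: 2 (Foxa3 and Cebpa) were higher in males, against 3.99%, and 1 (Onecut2) was higher in females, against 3.56%. In CAST liver 0 of 9 were called, against 5.65% of 24722 genes, although 3 of 9 had an unadjusted edgeR p under 0.05 (Foxa3, Onecut2 and Hnf4a) and DESeq2 likewise called 0. Between strains, 5 of 9 were called in males, against 38.4% of 25779 genes: Hnf4a, Cebpb, Onecut2 and Prox1 were higher in CAST (4, against 18.1%) and Foxa3 was higher in B6 (1, against 20.3%). In females 3 of 9 were called, against 39.9%: Cebpb and Cebpa were higher in CAST and Foxa3 in B6.

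These percentages include many genes with few reads. Among genes as abundant as Foxa1, the lowest member, or more so, 19.2% were called for sex in B6, 12.2% for sex in CAST, 53.6% for strain in males and 58.9% for strain in females. The members' counts in the same order were 3, 0, 5 and 3 of 9. The study's further condition, a fold change above 2, was met by 1 member in 1 comparison, Cebpb between the females of the 2 strains, where 24.4% of genes met it. It was met by 0 members in the other comparisons, against 2.40% of genes for sex in B6, 2.05% for sex in CAST and 23.8% for strain in males. The interaction, which asks whether the ratio of males to females differs between the strains, was called for 0 of 9 members in edgeR and 0 in DESeq2, against 2.28% of genes, with 1 member (Prox1) at an unadjusted edgeR p under 0.05. The sex differences of B6 and CAST members are therefore given side by side and were not shown to differ.

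**Figure D2:**
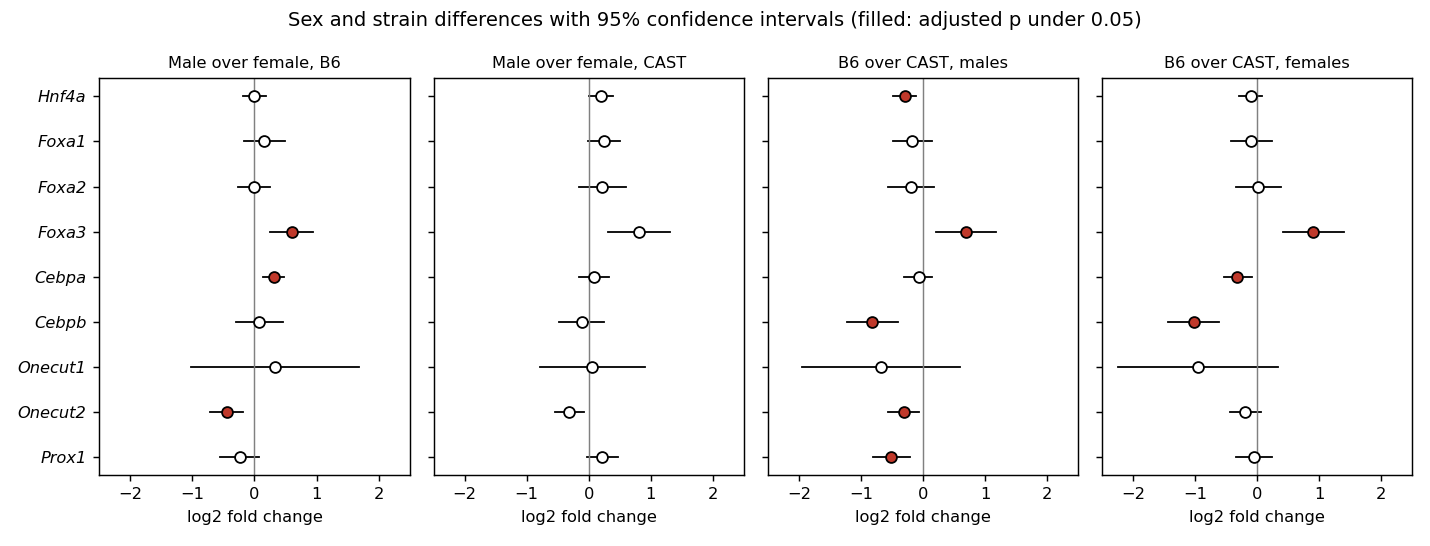
Log2 fold changes of the 9 members with 95% confidence intervals from edgeR (x axis; male over female in the first 2 panels, B6 over CAST in the last 2); filled points have an adjusted p under 0.05. Foxa3 is positive in all 4 panels, Cebpb is negative in both strain panels, and Onecut1 has the widest interval in each panel, from -2.25 to 0.34 between females of the strains.

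Hnf4a was the most abundant member and, with a within-group SD of 0.13 on the log2(FPKM + 0.1) scale, the steadiest of the 9. Its FPKM was 57.9, 65.8, 67.2, 62.1 and 56.5 in B6 males and 64.4, 53.8, 69.3, 71.1 and 56.4 in B6 females. In CAST males it was 76.8, 71.5, 90.7, 71.9 and 74.6, and in CAST females 64.6, 59.2, 67.2, 62.0 and 65.7. All 5 CAST males lay above every liver of the other 3 groups, the highest of which was B6 female 4 at 71.1. Groups without overlap occurred for 1 of 9 members between the sexes in CAST, against 5.81% of genes, for 3 of 9 (Hnf4a, Cebpb and Prox1) between males of the strains, against 26.5%, and for 0 of 9 between the sexes in B6, against 6.89%. The fold change of B6 over CAST males was -0.29 on the log2 scale (SE 0.09, adjusted p = 0.0103). Leaving out CAST male 3, the liver at 90.7, gave -0.22 and an adjusted p of 0.0522, the only 1 of the 20 livers whose removal ended the call. The sex difference in CAST, 0.20 (SE 0.09), had an adjusted p of 0.264. With library size alone as the scaling, as in FPKM, it was 0.29 (edgeR adjusted p = 0.0753). The separation of CAST males from CAST females in FPKM thus carries that scaling, and its part in the separation was not tested. In B6 the sex difference with TMM scaling was 0.00 within rounding, with a 95% interval of -0.18 to 0.18.

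Of the FOXA genes, Foxa3 differed and the others did not pass the test in any comparison. Foxa3 was measured at 10.4, 13.5, 12.6, 18.7 and 10.6 FPKM in B6 males and at 9.04, 12.5, 6.72, 7.66 and 7.82 in B6 females. In CAST males it was at 5.55, 6.43, 14, 6.34 and 8.47 and in CAST females at 3.67, 5.64, 6.17, 3.55 and 2.86. Every B6 female was above every CAST female, the only member without overlap there, against 26.5% of genes. The other 3 comparisons overlapped: 3 of 5 B6 males exceeded all B6 females, 4 of 5 CAST males exceeded all CAST females, and CAST male 3 lay within the range of the B6 males.

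Foxa3 was 1.51-fold higher in males than in females of B6 (log2 0.60, SE 0.17, adjusted p = 0.0343) and 1.76-fold higher in CAST males than females (log2 0.81, SE 0.24, adjusted p = 0.0522, not a call). The CAST difference was a call with edgeR's exact test, the test that the study used (adjusted p = 0.0371), and with library size alone as the scaling (0.0125). It was also a call with replicate number as a block after edgeR's filterByExpr filter (0.0247). It was not a call with DESeq2 (0.0856) or with limma on log2(FPKM + 0.1) or log2(FPKM + 1) (0.135 and 0.156). The 2 sex differences were of like size, with an interaction of -0.20 (95% interval -0.89 to 0.49). B6 exceeded CAST 1.62-fold in males (adjusted p = 0.0204) and 1.87-fold in females (adjusted p = 0.00337). The female strain difference was called in 8 of 8 alternative analyses and in each of 20 fits with 1 liver left out. For strain differences, here and below, the 8 include an unfiltered fit with replicate number as a block that was not relied on, as explained at the end. The B6 sex difference was less secure, since it was lost without B6 male 3 (adjusted p = 0.0527) or 4 (0.0958) and without B6 female 1 (0.0562), 3 (0.102), 4 (0.0846) or 5 (0.0813). It was also lost with the filterByExpr filter of edgeR (0.0569) and with limma on log2(FPKM + 0.1) or log2(FPKM + 1) (0.106 and 0.121). The CAST sex difference became a call without CAST male 1 (0.0261), 2 (0.0360) or 4 (0.0465) and without CAST female 2 (0.0362) or 3 (0.0149). The male strain difference was lost without B6 male 4 (0.0731) and without CAST male 1 (0.0651), 2 (0.0599) or 4 (0.0593).

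Foxa1 and Foxa2, the FOXA genes that specify liver in the embryo, had log2 sex differences of 0.16 and -0.01 in B6 and 0.24 and 0.22 in CAST. Their strain differences were -0.17 and -0.20 in males and -0.10 and 0.02 in females. Adjusted p-values in these 8 tests were between 0.305 and 0.970. The 95% intervals bound what could have been missed: for Foxa2 between B6 males and females they run from -0.27 to 0.25, and for Foxa1 between CAST males and females from -0.01 to 0.50. Foxa1 ranged from 2.43 to 5.50 FPKM over the 20 livers and Foxa2 from 4.21 to 9.33.

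Shares of the FOXA transcripts come from the same FPKM values, so they describe Foxa3 again, and they were not tested as shares. Of the summed FPKM of the 3 genes, Foxa3 made up 57.0 ± 4.89% in males and 47.6 ± 4.19% in females of B6, and 41.7 ± 12.5% in males and 32.5 ± 8.98% in females of CAST (SD, n = 5 each). Foxa2 made up 26 ± 1.79%, 33.3 ± 2.41%, 35.4 ± 8.68% and 41.3 ± 7.32% in the same order. The Foxa3 to Foxa2 ratio lay between 1.74 and 2.64 in B6 males and between 1.18 and 1.70 in B6 females, without overlap. In an exact two-sided permutation test that difference had p = 0.00794, the smallest that 5 against 5 livers allow, and an adjusted p of 0.127 over the 16 tests of 4 ratios. The same ratio was 1.89-fold higher in B6 than in CAST males (exact permutation p = 0.0397, adjusted 0.159) and 1.85-fold higher in females (0.0317, adjusted 0.159). Between the sexes in CAST the log2 ratio was higher in males by 0.59, with overlapping ranges (exact permutation p = 0.222, adjusted 0.492).

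**Figure D3:**
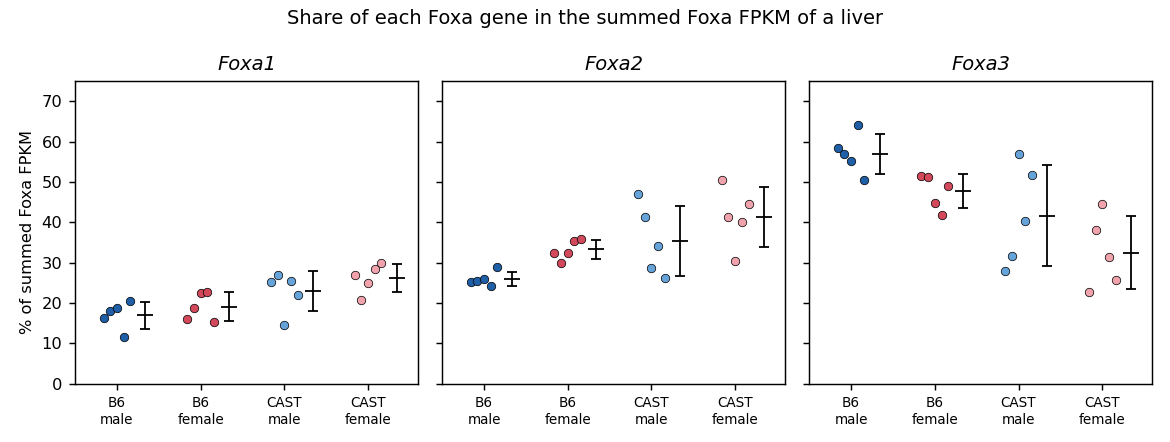
Share of Foxa1, Foxa2 and Foxa3 in the summed FPKM of the 3 genes (y axis, %) in each liver (points), with mean ± SD of the 5 livers of a group (bars). The mean share of Foxa3 is 57.0% in B6 males and 32.5% in CAST females, and the Foxa3 and Foxa2 shares are spread more widely in the CAST groups (SD 7.32 to 12.5) than in the B6 groups (SD 1.79 to 4.89).

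Of the C/EBP genes, Cebpb had the largest called strain difference of the members. Its FPKM was 18.7, 14, 7.79, 13.5 and 14.2 in B6 males and 15.3, 16.5, 10.9, 11.4 and 11.5 in B6 females. It was 30.8, 20.3, 19.1, 25.8 and 27.4 in CAST males and 33.2, 15.2, 24.1, 32.1 and 21.4 in CAST females. All CAST males lay above all B6 males, while among females CAST female 2, at 15.2, fell within the B6 range and the other 4 lay above it. Cebpb was 1.76-fold lower in B6 than in CAST males (log2 -0.82, SE 0.20, adjusted p = 0.00169) and 2.03-fold lower in females (log2 -1.02, SE 0.20, adjusted p = 0.000149). Both calls held in 8 of 8 alternatives and in each of 20 fits with 1 liver left out, with adjusted p-values of at most 0.00488 and 0.00401 in the former and 0.00619 and 0.000871 in the latter. Between the sexes the log2 difference was 0.08 in B6 (95% interval -0.30 to 0.46) and -0.11 in CAST (-0.48 to 0.25).

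Cebpa was higher in males than in females of B6 by 1.24-fold (log2 0.31, SE 0.08, adjusted p = 0.0290). The B6 males were at 66.8, 55.2, 67.0, 65.3 and 55.1 FPKM and the B6 females at 50.5, 46.9, 50.4, 58.1 and 47.7. Of the males 3 lay above all females, and B6 female 4 lay above the 2 lowest males. CAST livers, at 58.7, 70.0, 78.3, 68.9 and 55.0 in males and 66.3, 66.8, 48.6, 48.3 and 68.7 in females, had a log2 sex difference of 0.08 (95% interval -0.16 to 0.32). The interaction was 0.24 (SE 0.15, adjusted p = 0.530). In females Cebpa was 1.24-fold lower in B6 than in CAST (log2 -0.32, adjusted p = 0.0223), and in males the strain difference was -0.07 (95% interval -0.30 to 0.15).

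Those Cebpa calls were easily lost. The B6 sex difference ended without B6 male 1 (adjusted p = 0.0822), 3 (0.0841) or 4 (0.0594) and without B6 female 1 (0.0578), 3 (0.0795) or 5 (0.0769). The female strain difference ended without B6 female 5 (0.0502) or CAST female 1 (0.0684), and with library size alone as the scaling (log2 -0.23, adjusted p = 0.109) or limma on log2(FPKM + 0.1) or log2(FPKM + 1) (0.163 and 0.168). The Cebpb to Cebpa ratio ranged from 0.116 to 0.279 in males and from 0.196 to 0.353 in females of B6, and in CAST from 0.244 to 0.525 and from 0.227 to 0.665. Its difference between the strains was 1.74-fold in males (exact permutation p = 0.0397, adjusted 0.159) and 1.61-fold in females (p = 0.0714, adjusted 0.229), so it did not pass in either sex. Of the 16 ratio tests 0 passed the adjustment and 4 had an unadjusted exact permutation p under 0.05. A lone ratio at the smallest permutation p that 5 against 5 livers allow, 0.00794, has an adjusted p of 0.127 over the 16 tests. The adjustment could thus hardly be passed, and 0 passing says little on whether the ratios differ.

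Onecut1 varied between livers of the same sex and strain more than nearly any other gene. Its FPKM was 2.1, 18.4, 1.64, 12.5 and 0.971 in B6 males and 4.04, 8.75, 5.24, 9.99 and 0.792 in B6 females. It was 11.4, 3.96, 24.1, 14.6 and 4.19 in CAST males and 15.6, 2.99, 10.7, 12.3 and 11.6 in CAST females. The B6 males split into a low set of 3 livers at 0.971 to 2.1 and a high pair at 12.5 and 18.4, while in both female groups 1 liver lay below the rest. Within a group the highest liver exceeded the lowest 18.9-fold (males) and 12.6-fold (females) in B6, and 6.10-fold (males) and 5.23-fold (females) in CAST. The B6 males with 0.971 and 18.4 FPKM had 73 and 2245 reads, a gap far beyond counting error. The within-group SD of log2(FPKM + 0.1) was 1.37, against a median of 0.16 over 9063 genes averaging 1 FPKM or more, and 99.9% of those genes had a smaller one, placing Onecut1 at rank 12.

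With that spread no Onecut1 comparison passed the test. The log2 differences were 0.33 for sex in B6 (95% interval -1.03 to 1.69), 0.06 for sex in CAST (-0.79 to 0.91), -0.67 for strain in males (-1.95 to 0.60) and -0.96 for strain in females (-2.25 to 0.34). Except for sex in CAST, these intervals reach past 2-fold in at least 1 direction. When single livers were left out, the B6 sex difference ranged from -0.42 to 0.61 and the CAST one from -0.42 to 0.29, so that neither kept its sign.

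**Figure D4:**
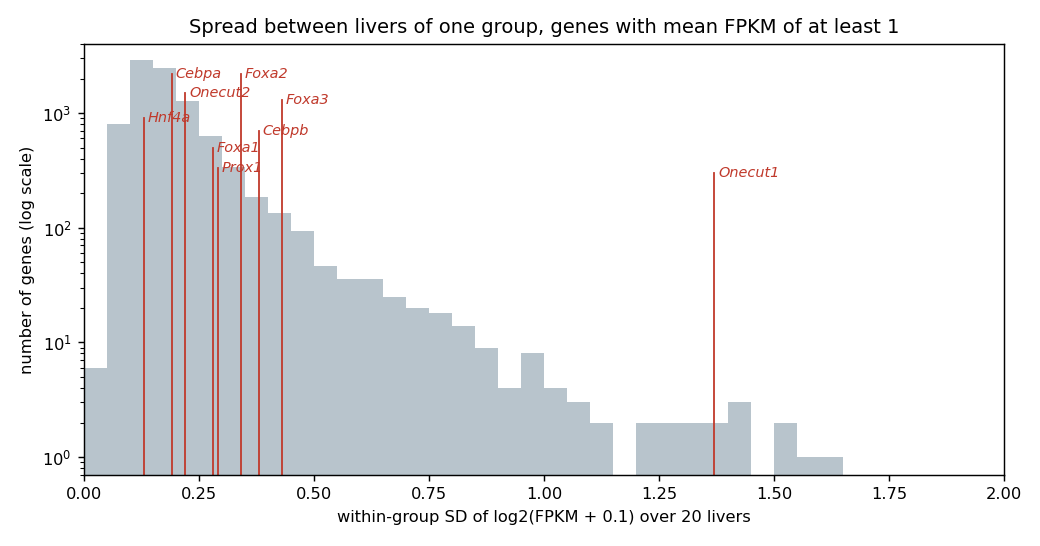
Histogram of the within-group SD of log2(FPKM + 0.1) over 20 livers (x axis, bins of 0.05 shown up to 2) for 9063 genes averaging 1 FPKM or more (y axis, log scale), with the 9 members as vertical lines whose heights carry no value. Onecut1 stands at 1.37, far to the right of the other members, which lie between 0.13 (Hnf4a) and 0.43 (Foxa3).

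Across livers, the gene whose deviations from its group means were most like those of Onecut1, in a search of the 9063 genes averaging 1 FPKM or more, was Lifr, the receptor for leukemia inhibitory factor, with a Pearson r of 0.90 over 20 livers. Within the groups of 5, r was 0.98, 0.92, 0.91 and 0.79 in males and females of B6 and then of CAST. In B6 males Lifr was at 26.4, 44.3, 18.9, 40.4 and 17.7 FPKM, so that the pair of livers high in Onecut1 was also the pair high in Lifr. The livers share library preparation and depth with both genes, and the partner is the best of all genes searched, so r is a description. Of the genes searched, 15 had an r of at least 0.8 with Onecut1.

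**Figure D5:**
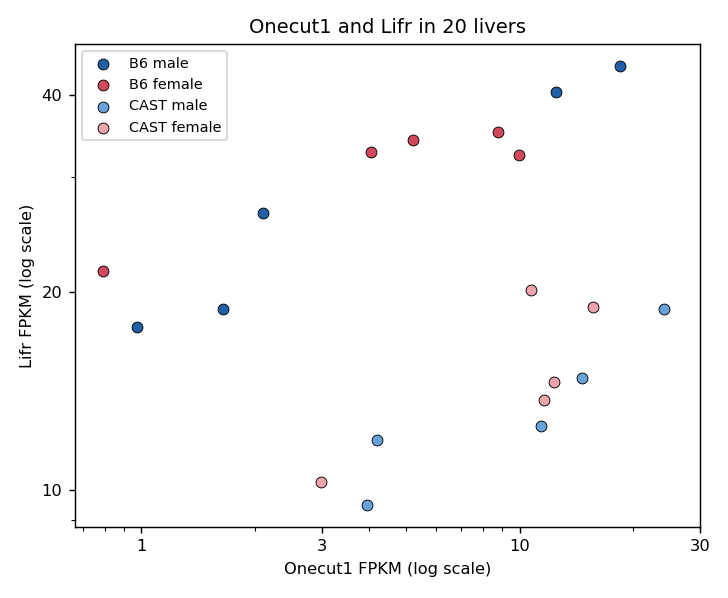
Lifr FPKM (y axis, log scale) against Onecut1 FPKM (x axis, log scale); each point is a liver, coloured by group. Lifr increases with Onecut1 within each group, and at a given Onecut1 level the B6 livers have more Lifr than the CAST livers.

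Onecut2 was steadier, with a within-group SD of 0.22 on the same log2 scale. It was at 5.14, 5.65, 4.64, 4.45 and 4.70 FPKM in B6 males and 5.43, 6.41, 7.22, 9.46 and 5.54 in B6 females. CAST males were at 6.51, 5.76, 5.10, 7.27 and 6.55 and CAST females at 7.16, 5.76, 7.66, 7.78 and 8.39. In B6, 4 of 5 males lay below all females and 3 of 5 females above all males, and in CAST 3 of 5 females lay above all males. Females exceeded males 1.36-fold in B6 (log2 -0.44 for male over female, SE 0.12, adjusted p = 0.0357) and 1.24-fold in CAST (-0.31, SE 0.11, adjusted p = 0.121), with an interaction of -0.12 (95% interval -0.48 to 0.24). Among males B6 was 1.24-fold lower than CAST (-0.31, adjusted p = 0.0492), and among females the difference was -0.19 (95% interval -0.44 to 0.06).

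The Onecut2 calls were near the threshold. The B6 sex difference was lost without B6 male 3 (adjusted p = 0.0855), 4 (0.0753) or 5 (0.0667) and without B6 female 3 (0.0806) or 4 (0.0868), and the CAST sex difference was called without CAST female 2 (0.0367). The male strain difference was lost in 12 of 20 fits with 1 liver left out, with adjusted p-values from 0.0524 to 0.134, namely without B6 males 1, 3, 4 and 5, B6 females 2 and 3, CAST males 1, 2, 4 and 5 and CAST females 1 and 5. It was also lost with DESeq2 size factors in edgeR (0.0539) and with limma at either pseudocount (0.0662 and 0.0771). The female strain difference was called without B6 female 4 (0.0193). The ratio of Onecut2 to Onecut1 spanned 0.308 to 4.84 in B6 males alone, and none of its 4 comparisons had an exact permutation p under 0.167.

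Prox1 differed between the strains in males. B6 males were at 7.83, 5.02, 8.52, 8.61 and 6.72 FPKM, all below the CAST males at 10.7, 9.59, 9.19, 10.8 and 12.8. B6 females, at 10.5, 5.83, 10.3, 9.28 and 8.21, overlapped with CAST females, at 8.29, 6.49, 9.23, 8.16 and 11.2. Prox1 was 1.42-fold lower in B6 than in CAST males (log2 -0.51, SE 0.14, adjusted p = 0.00600), a call that held in 8 of 8 alternatives and in each of 20 fits with 1 liver left out (adjusted p at most 0.0232). The female strain difference was -0.06 (95% interval -0.35 to 0.24). Sex differences pointed opposite ways, -0.24 in B6 and 0.22 in CAST, and neither passed (adjusted p = 0.366 and 0.355). The test of their difference gave an interaction of -0.45 (SE 0.20, 95% interval -0.87 to -0.03), which had the smallest interaction p of the members but an adjusted edgeR p of 0.301.

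Members were compared with each other through their deviations from group means over the 20 livers. Of 36 pairs, 0 passed the adjustment and 3 had an unadjusted p under 0.05 in a permutation test within groups with 100000 resamples. Foxa1 and Foxa2 deviated together (Pearson r = 0.59, permutation p = 0.00640, adjusted 0.230; Spearman rho = 0.58, permutation p = 0.0129, adjusted 0.453), and without the 2 livers farthest from the median of Foxa1 r was 0.62. Hnf4a and Onecut1 had r = 0.49 (permutation p = 0.0475, adjusted 0.518) and rho = 0.49 (permutation p = 0.0550), with r = 0.61 without 2 livers. Foxa3 and Onecut2 had r = -0.47 (permutation p = 0.0467, adjusted 0.518) and rho = -0.47 (permutation p = 0.0549), with r = -0.45 without 2 livers.

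For the other members, the genes with the most similar deviations were Nploc4 for Hnf4a (r = 0.92), Id1, an inhibitor of helix-loop-helix factors, for Foxa2 (0.90), Atxn7 for Onecut2 (0.87), Srprb, a subunit of the signal recognition particle receptor, for Foxa3 (0.86), Proser1 for Cebpa (0.84), Nisch for Prox1 (0.82), Hhex, a homeobox factor of liver development, for Foxa1 (0.76) and Apbb3 for Cebpb (0.75). Each is the best of the 9063 genes searched over 20 livers, and no p is given. Hnf4a and Foxa2 had 41 and 40 genes with an r of at least 0.8, and Foxa1 and Cebpb had 0.

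Genes from lists chosen around the members were read in the same fits, where 38.4% of all genes were called between males and 39.9% between females of the strains, and 53.6% and 58.9% of genes at least as abundant as Foxa1. For sex, 7.55% of all genes were called in B6 and 5.65% in CAST, and 19.2% and 12.2% of genes at least as abundant as Foxa1. Of 9 paralogs (Hnf4g, Onecut3, Prox2, Cebpd, Cebpe, Cebpg, Foxo1, Foxo3 and Foxm1, the Foxo and Foxm1 genes being more distant forkhead relatives), 6 averaged below 1 FPKM over the 20 livers. Of the 9, 1 was called for sex in B6 (Hnf4g, higher in females) and 0 in CAST. Between strains 3 were called in males, all higher in B6, and 4 in females, 2 higher and 2 lower, counts near the share of all genes. Cebpe, a C/EBP gene known from granulocytes, had the smallest adjusted p, averaging 1.49 FPKM in the males and 1.24 in the females of B6, against 0.0865 and 0.0439 for CAST.

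Of 20 other hepatocyte transcription factors, 2 were called for sex in B6 and 4 in CAST, against 19.2% and 12.2% of genes at least as abundant as Foxa1. Nr1i3, the nuclear receptor CAR that induces drug-metabolising enzymes, was lower in males of both strains (log2 -1.09 in B6, adjusted p = 0.00422, and -1.05 in CAST, adjusted p = 2.99e-05). Between strains 7 of 20 were lower in B6 and 0 higher in males, and in females 10 were lower and 2 higher. In all 7 and 12 of 20 were called, which is no more than the share among genes at least as abundant as Foxa1 in males and near it in females, with list medians of -0.20 and -0.27 against 0.07 and 0.00 for all genes and -0.01 and -0.15 for genes at least as abundant as Foxa1. In females the smallest adjusted p-values were those of Nr1h3, the oxysterol receptor (log2 -0.70), Dbp (-3.18) and Tef (-1.15), the last 2 being factors that follow the circadian clock. Dbp averaged 5.51 FPKM in the males and 2.68 in the females of B6 and 15.4 and 22.7 for CAST, and the part of these 2 genes in the strain differences of the members was not tested.

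Of 15 measured target genes of these factors (secreted proteins, clotting factors and metabolic enzymes), 3 were called for sex in each strain. Among genes at least as abundant as Foxa1 the share was 19.2% in B6 and 12.2% in CAST. Albumin, Alb, was lower in males (log2 -0.62 in B6, adjusted p = 0.000624, and -0.60 in CAST, adjusted p = 0.00299), as was F7, clotting factor VII (-0.38 and -0.54). Between strains 4 were higher and 3 lower in B6 males, and 2 were higher and 6 lower in B6 females, so that 7 and 8 of 15 were called, near the share among genes at least as abundant as Foxa1. The smallest adjusted p in both sexes was that of G6pc, the glucose 6-phosphatase of gluconeogenesis, with 83.8 to 174 FPKM in B6 males and 92.9 to 117 in B6 females but at most 1 read per liver in CAST. Reads of each strain were mapped to a genome of that strain, so mapping and strain cannot be told apart in any strain difference given here.

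Some markers of other cell types differed between the groups. The summed FPKM of 4 measured Kupffer cell (liver macrophage) markers ran from 11.7 to 23 in males and from 28.2 to 33.1 in females of B6, and in CAST from 4.17 to 11.2 and from 6.70 to 22.7, and 4 of 4 were called higher in B6 in both sexes. Of these markers 3 of 4 were called higher in females in B6, against 3.56% of all genes, and 0 of 4 in CAST. Stellate cell markers were called higher in females for 4 of 5 in B6 and 2 of 5 in CAST, with sums of 19.9 to 29.7 in B6 males and 36.7 to 41.5 in B6 females, the group where Foxa3 and Cebpa were lower and Onecut2 higher than in B6 males. Of 6 endothelial markers, which include genes of lymphatic vessels where Prox1 is also expressed, 1 was called between males of the strains. The sums of these markers were 14.2 to 17.2 in B6 males and 10.3 to 16.7 in CAST males. Between females of the strains 2 of 6 were called, 1 higher and 1 lower in B6. For sex, 2 of 6 were called in B6, both higher in females, where the sums were 18.4 to 23.5. In CAST 0 of 6 were called for sex. Alas2, the only 1 of 5 red blood cell precursor genes with reads, the 4 globin genes being listed at 0, was at 26.9 to 36.5 FPKM in B6 males and 1.09 to 5.42 in the other groups. Of the bile duct markers, 3 of 5 tested were higher in B6 males and 2 of 5 in B6 females than in CAST. Hepatocyte markers were called between males of the strains for 5 of 6, 4 higher and 1 lower in B6. Between females 2 of 6 were called, and for sex 2 of 6 in each strain. Among genes at least as abundant as Foxa1, 53.6% were called between males and 58.9% between females of the strains. The part of these cells in the members' differences was not tested.

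Cebpb is known to respond to inflammation and handling, so 2 further lists were read beside it. The summed FPKM of 13 acute-phase genes was 12771 in CAST male 5 and 3055 to 3251 in the other CAST males, and Cebpb in that liver, 27.4, lay within the range of the other CAST males. Of the 13, 5 were called for sex in B6 and 0 in CAST, against 7.55% and 5.65% of all genes and 19.2% and 12.2% of genes at least as abundant as Foxa1. Between strains 2 were higher and 3 lower in B6 than in CAST males, and 5 were higher in B6 females, against 38.4% and 39.9% of all genes called. Hp, haptoglobin, had 598 to 1078 FPKM in B6 males and 23.8 to 29.9 in CAST males. In 9 immediate-early genes the sum was 66.1 in B6 male 5 and 34.2 in B6 female 5, against at most 15.6 and 19.1 in the others of their groups, and these were the B6 livers with the lowest Onecut1 of their groups. In CAST females the highest sum, 20.6 in female 2, was likewise in the liver with the lowest Onecut1, but female 1 was close to it with a sum of 20.3 and had the highest Onecut1. In CAST males the highest sum, 23.8 in male 3, was in the liver with the highest Onecut1. Of these 9 genes, 0 were called for sex in either strain and 3 for strain in each sex. The Cebpb strain calls held without each of these livers. The part of the genes of both lists in the strain difference of Cebpb and in the spread of Onecut1 was not tested.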

How the data were processed

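The authors mapped paired reads with TopHat, B6 to mm9 and CAST to a CAST genome built on mm9, and deposited counts of uniquely mapped reads on exons of RefSeq protein-coding and noncoding genes, made with featureCounts. The authors' FPKM values were used as deposited for levels, ratios and spread. The count columns of each strain were tested with edgeR 4.0.16 (quasi-likelihood, TMM scaling, Benjamini-Hochberg over all genes): sex within each strain, strain and interaction in 1 fit of 4 groups, in which 3174 genes listed for 1 strain entered with 0 in the other and 2028 were left out. Columns of the authors' own comparisons, with fold changes and p-values, and 24 other columns were not used. Alternatives used DESeq2 1.42.0 and limma 3.58.1 on R 4.3.3, other scalings, filters and pseudocounts, and 1 liver left out at a time. Ratios were tested by exact two-sided permutation (scipy 1.17.1). Scripts were tested on simulated data. The members, lists and naming rules were chosen with earlier results of these data known. Named genes were the 9 members, the gene most like each, and at most 3 of smallest adjusted p per list and comparison. Livers of a group all differed beyond counting noise (lowest chi-square per degree of freedom 8.11), so none was counted as a repeat.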

Additional observations from a re-analysis of the deposited data

Results flagged for a closer look

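Of 108 group tests for a liver far from the other 4 of its group, 8 stood out, where chance gives about 1 in 20. Among the members, 1 of 36 did: Hnf4a in CAST male 3, at 90.7 FPKM with the nearest liver at 76.8, is the liver on which the male strain call of Hnf4a rests. The ratio of Onecut2 to Onecut1 was 7.0 in B6 female 5, with the next at 1.38, and 1.93 in CAST female 2, with the next at 0.720, both being the livers with the lowest Onecut1 of their group.

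Among the list sums, the acute-phase genes reached 12771 FPKM in CAST male 5 (nearest 3251), with Saa1 alone at 2151. The immediate-early genes reached 66.1 in B6 male 5 (nearest 15.6). In CAST female 5 the endothelial markers summed to 31.4 (nearest 16.8) and the Kupffer cell markers to 22.7 (nearest 9.08). Alas2, the only red blood cell precursor gene with reads, was at 36.5 in B6 male 2 (nearest 29.4).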

How the results depend on the processing

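Between the sexes in B6, 3 members called became 0 with limma on log2(FPKM + 0.1), 0 with limma on log2(FPKM + 1), 0 with a fold change above 2 as well, 0 to 3 with 1 liver left out, and 2 with filterByExpr (Foxa3 lost). Between the sexes in CAST, 0 became 1 (Foxa3) with library size alone, 1 (Foxa3) with edgeR's exact test and 0 to 2 with 1 liver left out. Between strains, a fold change above 2 left 0 of 5 in males and 1 of 3 in females, and leaving out 1 liver gave 3 to 5 and 2 to 4. Onecut2 in males was lost with DESeq2 size factors and with limma, and Cebpa in females with library size alone and with limma. The interaction and the co-variation stayed at 0 in each alternative run, as did the ratios, whose smallest possible permutation p hardly allows a pass. The cause of these changes was not tested. No member changed direction past the threshold.

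Titles number the livers 1 to 5 in every group, but same-numbered livers did not deviate together in all pairs (mean r 0.0512 between B6 sexes, 0.121 between CAST sexes, -0.0257 between males and 0.0688 between females), and 3, 6, 0 and 4 of 10 livers correlated best with their own number. With the replicate number as a block, CAST sex calls were 2 (Foxa3 and Onecut2), or 1 after filterByExpr (Foxa3, edgeR adjusted p = 0.0247). B6 sex calls were 3, or 2 after filterByExpr, where Cebpa stayed (0.0433), Prox1 was gained (edgeR adjusted p = 0.0406) and Foxa3 (0.0507) and Onecut2 (0.0743) were lost. Strain calls under the unfiltered block were 4 in males (Onecut2 lost) and 3 in females. The unfiltered block gave edgeR adjusted p-values far below those of the filtered one for Foxa3 (1.69e-14 in CAST, 1.68e-07 in B6) and for Onecut2 in B6 (0.000245), so its counts were not relied on. The cause was not tested. Strain calls said above to hold in 8 of 8 alternatives held in the others as well. The lowest Onecut1 liver had 48 reads, so depth limits its value more than those of other members.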
